A study of Rattus norvegicus with 6 samples.

Results

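The 7 genes described here are markers of the minor endocrine cells of the islet. They were chosen by symbol as genes of delta cells (Sst, Hhex, Rbp4, Ghsr), PP cells (Ppy, Pyy) and epsilon cells (Ghrl), and all 7 were present among the 17321 genes counted. RNA sequencing had been done on islets of Sprague Dawley rat fetuses at gestational day 22. In the libraries labelled high glucose, fetuses of the left uterine horn had received 4 mg/min glucose for 48 h from gestational day 20. The control libraries came from right-horn fetuses of those dams, which by the design stayed normoglycemic. There were 3 libraries per group, and each held the islets of 2 pooled pancreata. They were taken as 3 dam pairs from their titles, which do not state the dam. In pair 2 the control title carries a digit that the high glucose title lacks, so that pair and every difference within it rest on this reading. All islets were hand-picked after collagenase digestion and cultured for 24 h at 5 mM glucose before lysis, so every value describes recovered islets. Horn and treatment went together in every pair and cannot be told apart.

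Delta cells secrete somatostatin, the product of Sst, which acts on neighbouring cells to restrain insulin and glucagon release. PP cells secrete pancreatic polypeptide (Ppy), and epsilon cells, which are more frequent in fetal than in adult islets, secrete ghrelin (Ghrl). Peptide YY (Pyy) is a gut and islet hormone of the same family as pancreatic polypeptide and is expressed widely in endocrine cells of the developing mouse pancreas. Hhex is a homeodomain factor that mouse delta cells need for their identity, and Ghsr is the ghrelin receptor, enriched in mouse delta cells. Rbp4 encodes the plasma carrier of retinol and is enriched in delta cells of the mouse islet.

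Total counts lay between 18077841 and 30993532 per library. The horn letter of the deposited file name is the opposite of that of the sample title in 6 of 6 libraries. The treatment labels were followed, and every direction given here would turn round if the file names were right. The labels do not say whether the 3 dams were treated on separate days. Ins1 was the most abundant of 8 islet hormone genes in each library, at 11968 to 39210 TPM (counts scaled for gene length and library total). Libraries also held exocrine and stromal RNA. The summed level of 13 acinar genes was 276, 2088 and 1369 TPM in high glucose pairs 1 to 3, against 404, 1364 and 56.9 TPM in the controls. That of 10 mesenchyme genes was far higher, at 12320, 10581 and 16236 TPM in high glucose and 9185, 11742 and 16977 TPM in the controls.

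Pyy was the most abundant of the 7 genes, and it far exceeded its neighbour Ppy. The pair lie on the minus strand of rn6 chromosome 10, Ppy at 90041582 to 90042877 and Pyy at 90047991 to 90049112, with 5113 bases and 0 other counted genes between them. Pyy stood at 4777, 4206 and 2418 TPM in high glucose and 4362, 4954 and 3591 TPM in control pairs 1 to 3. Ppy stood at 280, 128 and 136 TPM in high glucose and 237, 156 and 228 TPM in control. In each library Pyy was 15.8 to 32.9 times as high as Ppy per length. It ranked between place 11 and place 36 of all genes, and its level passed that of the glucagon gene Gcg in 3 of 6 libraries. No exon of either gene overlapped an exon of another counted gene.

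The regions just upstream are shown because these adjacent paralogs differ so much in level. They are the 250 bases before the RefSeq start in GRCr8, written 5′ to 3′ on the gene's strand, with any TATAAA (the TATA box letters) in capitals.
Ppy promoter, chr10:87556237-87556486, minus strand: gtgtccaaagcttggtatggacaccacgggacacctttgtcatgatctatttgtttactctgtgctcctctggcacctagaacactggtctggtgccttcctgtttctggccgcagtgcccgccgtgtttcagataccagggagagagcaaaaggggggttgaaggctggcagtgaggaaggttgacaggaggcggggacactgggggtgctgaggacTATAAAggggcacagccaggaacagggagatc
Pyy promoter, chr10:87562471-87562720, minus strand: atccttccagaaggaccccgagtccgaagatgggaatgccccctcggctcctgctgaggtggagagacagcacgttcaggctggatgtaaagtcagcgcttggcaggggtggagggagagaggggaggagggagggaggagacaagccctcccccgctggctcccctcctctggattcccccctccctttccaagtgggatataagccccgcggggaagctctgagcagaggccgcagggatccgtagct
All 7 genes had a RefSeq promoter window of 300 bases (250 before to 50 after the annotated start). TATAAA, searched on both strands, was found in the windows of Ppy (1 match, first base at -32) and Rbp4 (1 match, first base at -50) and in 14.2% of 33469 promoter windows. Only these exact letters were sought. The Pyy stretch above holds tataag, which differs from them in the last letter, and such variants were not counted in any window. TAATTA, core letters of homeodomain sites, occurred in the window of Sst alone among the 7, and in 5.36% of all windows. The cAMP response element TGACGTCA, through which cAMP signalling is known to drive rat Sst, lay in the Sst window. Its first base was base 3 of the annotated transcript. Annotated starts were not checked against measured ones, so whether the element is transcribed was not tested. The element occurs in 1.83% of all windows and in none of the other 6. It is shown in capitals within 30 bases.
Sst element, chr11:90461537-90461566, plus strand: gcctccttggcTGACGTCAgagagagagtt
These matches describe letters in a window and not sites in use.

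**Figure D1:**
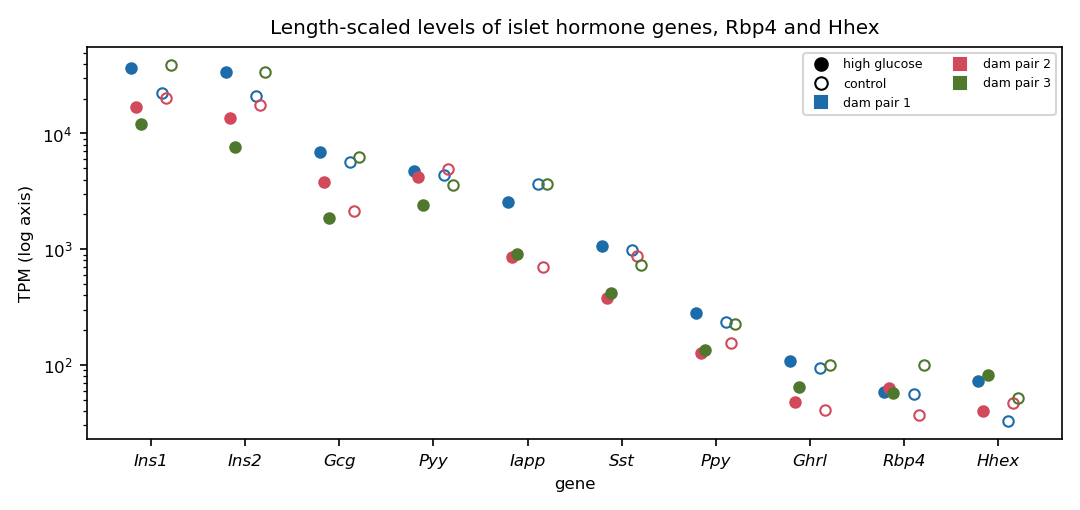
TPM on a log axis for 8 islet hormone genes, Rbp4 and Hhex, with 1 point per library (filled, high glucose; open, control; colour, dam pair). The ranges of Pyy, Sst and Ppy do not overlap one another, whereas Ghrl, Rbp4 and Hhex overlap one another at or below 108 TPM.

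Per length, the upper part of the order of the 7 genes was the same in all 6 libraries. Pyy (2418 to 4954 TPM) stood above Sst (380 to 1061 TPM), and Sst above Ppy (128 to 280 TPM), with no overlap of the ranges. Ppy in turn stood above Ghrl (40.9 to 108 TPM), Rbp4 (36.6 to 101 TPM) and Hhex (32.6 to 82.2 TPM). The ranges of these 3 overlapped, and their order changed between libraries. Ghrl exceeded Rbp4 in 4 of 6 libraries, and Rbp4 exceeded Hhex in 3 of 6.

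Ghsr was at the edge of detection. It had 2 counts in the high glucose library of pair 1, and 0 in the other 5 libraries. The 2 counts amount to 0.0662 CPM, the count scaled to the library total (exact Poisson 95% interval 0.00801 to 0.239, counting error only). A count of 0 allows up to 0.1002 to 0.132 CPM in the other high glucose libraries and up to 0.0968 to 0.166 CPM in the controls, taking 3 counts as the limit. Ghsr did not pass the filter on low counts and was not tested. No difference in it was detectable at this depth.

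The comparison of infused with control fetuses was made within dams. It used edgeR's quasi-likelihood test with dam as a block and p-values adjusted over all 12276 genes tested. Of the 6 members tested, 0 passed an adjusted p of 0.05, where 0.0163% of all genes did. DESeq2 also called 0, against 0.826% of all genes given an adjusted p, and 1 member (Sst) had an unadjusted edgeR p below 0.05, which 4.82% of all genes had. The median log2 fold change of the 6 was -0.23, beside 0.00 over all genes. The groups overlapped for each of the 6 (0 without overlap, beside 3.31% of all genes). None kept one direction in all 3 pairs (0 of 6, beside 23% of all genes). In bulk islets, fewer cells of a type and less RNA per cell cannot be told apart.

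Sst (rn6 chromosome 11, 80358172 to 80359449, plus strand) gave the smallest p of the members. In CPM, here scaled by trimmed-mean (TMM) factors, it measured 389, 191 and 146 in high glucose pairs 1 to 3, against 345, 443 and 322 in the controls. Pairs 2 and 3 had the lower value in high glucose and pair 1 the higher one, and the groups overlapped because the high glucose library of pair 1 lay among the controls. The means were 242 ± 129 CPM in high glucose and 370 ± 64.5 CPM in control (SD, n = 3 each). The log2 fold change was -0.73 (SE 0.29, edgeR adjusted p = 0.952). Without pair 1, the pair of opposite direction, it was -1.18 (edgeR adjusted p = 0.0653). Without pairs 2 and 3 in turn it was -0.48 and -0.52 (edgeR adjusted p = 0.9933 and 0.9995). Its size thus depended on single pairs.

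Hhex (chromosome 1, 256101994 to 256107581, plus strand) had a fold change of the opposite sign to that of Sst. It measured 65.4, 48.8 and 70.4 CPM in high glucose and 27.8, 58.0 and 55.6 CPM in control pairs 1 to 3. The control library of pair 1 was the low one, and pair 2 had the opposite direction to pairs 1 and 3. The log2 fold change was 0.44 (SE 0.28, edgeR adjusted p = 0.9996), and 0.04 without pair 1. Hhex is also a gene of duct and endothelial cells. The summed level of the duct markers (8 of 10 counted, none at 0) differed by 0.82, 0.51 and 0.88 on the log2 scale in pairs 1 to 3, at 2101 to 7746 TPM in high glucose and 1480 to 4202 TPM in control. That of the 10 endothelial markers, none at 0, differed by -0.07, -1.42 and -0.01, at 238 to 707 TPM in high glucose and 638 to 724 TPM in control. The part of these cells in the Hhex values was not tested.

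Rbp4 (chromosome 1, 256806476 to 256813678, minus strand) measured 29.7, 43.6 and 27.6 CPM in high glucose and 27.0, 25.7 and 60.4 CPM in control. The control library of pair 3 was the highest. The other 5 values lay between 25.7 and 43.6 CPM, with overlapping groups. The log2 fold change was -0.08 (SE 0.36, edgeR adjusted p = 0.9996), and it was 0.45 without pair 3. Liver and fat also make Rbp4. Among 11 liver markers, 7 of them tested, Apoa2 had 0 counts and Ahsg stayed below 1 TPM in every library. The list summed to 411, 160 and 879 TPM in high glucose against 226, 150 and 445 TPM in control. Among 6 adipose markers Adipoq, Plin1 and Lep stayed below 1 TPM in every library. The list summed to 152 to 188 TPM in high glucose and 135 to 261 TPM in control, and the part of either tissue in the Rbp4 values was not tested.

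The fold changes of Ppy, Pyy and Ghrl were closer to 0 than that of Sst. Ppy measured 75.9, 47.5 and 35.2 CPM in high glucose and 61.4, 58.8 and 73.4 CPM in control, and Pyy measured 1386, 1672 and 672 CPM in high glucose and 1208, 2003 and 1239 CPM in control. For both, high glucose was higher in pair 1 and lower in pairs 2 and 3. The log2 fold changes were -0.35 for Ppy (SE 0.26, edgeR adjusted p = 0.9996) and -0.31 for Pyy (SE 0.25, edgeR adjusted p = 0.9996). Without pair 3 they were 0.0013 for Ppy and -0.03 for Pyy. Ghrl (chromosome 4, 145674157 to 145678066, minus strand) measured 30.0, 18.3 and 17.2 CPM in high glucose and 24.9, 15.9 and 33.0 CPM in control. Its fold change was -0.15 (SE 0.27, edgeR adjusted p = 0.9996), and 0.24 without pair 3, where the control library is the highest of the 6. Pyy, Sst and Ghrl are also gut hormones. The 11 markers of gut epithelium and gut endocrine cells, none at 0, summed to 254, 162 and 232 TPM in high glucose and 927, 137 and 206 TPM in control, and their part was not tested. The list includes Gast, which fetal islets also express.

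**Figure D2:**
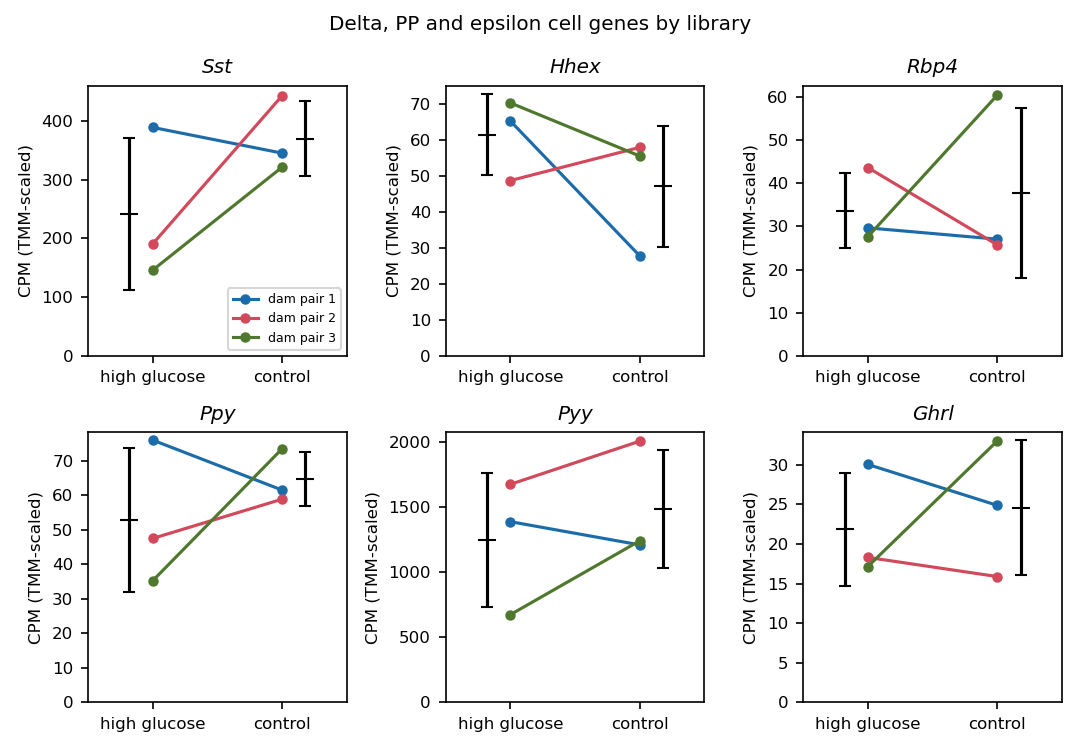
TMM-scaled CPM of the 6 tested members, high glucose left and control right in each panel, with a line joining the libraries of a dam. Black marks give the mean and SD of 3 libraries. The lines cross in every panel, and the groups overlap for all 6 genes.

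The members were next set beside genes that all endocrine cells use, since the libraries of a pair could differ in endocrine content. Of 16 such genes (granins, prohormone processing enzymes, vesicle proteins and islet factors) 15 were tested. Their median log2 difference was 0.68, 0.10 and -1.41 in pairs 1 to 3, and 0 passed the edgeR test. In pair 3 the 15 genes ran from -2.14 (Scg5) to 0.14 (Chgb), a wide spread around that median. The chromogranin A gene Chga, for example, measured 448, 244 and 144 CPM in high glucose against 228, 304 and 286 CPM in control. The members' signs in pairs 1 and 3 were set beside these. High glucose was higher in pair 1 for 6 of 6 members and lower in pair 3 for 5 of 6, all but Hhex, where 51.3% of all genes were lower in pair 3. This combination held for 5 of 6 members and 13 of the 15 endocrine genes, and for 25% of all genes tested.

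In pair 2 the Sst difference was larger than those of the other hormone members. It was -1.22 on the log2 scale, beside 0.10 for the endocrine median, 0.20 for Ghrl, -0.26 for Pyy and -0.31 for Ppy. A single pair has no replicate check. In pair 3 the Sst difference of -1.14 lay beside an endocrine median of -1.41 and -1.06 for Ppy. After subtracting the endocrine median, Sst gave -0.51, -1.31 and 0.27 in pairs 1 to 3 (mean -0.51 ± 0.79 SD, n = 3, exact sign-flip permutation p = 0.5, two-sided). The corresponding means were 0.65 ± 1.05 for Hhex, 0.13 ± 0.62 for Rbp4, -0.14 ± 0.43 for Ppy, -0.10 ± 0.55 for Pyy and 0.06 ± 0.44 for Ghrl. The exact p was 0.5 to 1 for these 5, and with 3 pairs it cannot go below 0.25, so none could pass. Against Chga alone the mean was -0.62 for Sst and 0.55 for Hhex, each with one sign in all 3 pairs (exact p = 0.25).

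**Figure D3:**
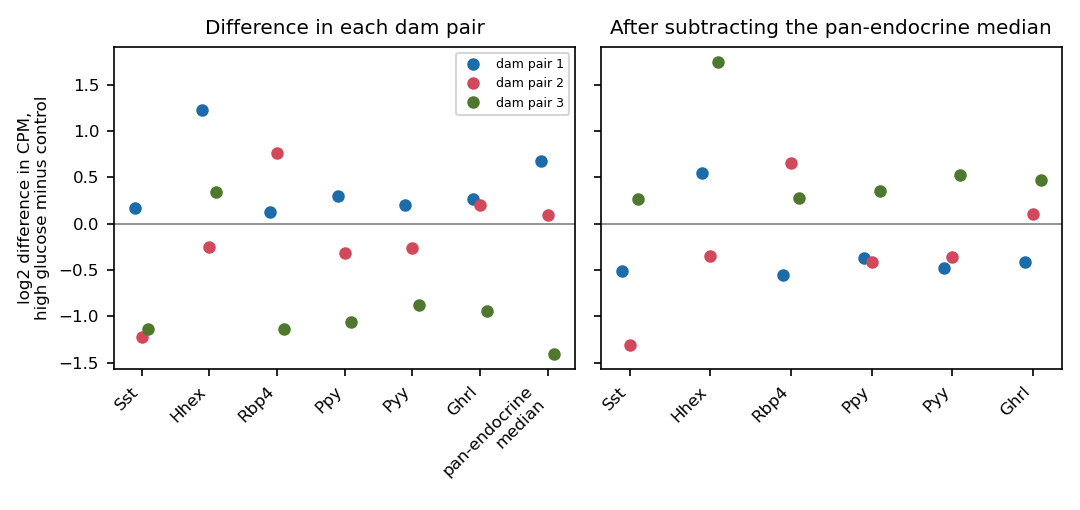
Log2 CPM difference, high glucose minus control, in each dam pair (left, with the median of 15 pan-endocrine genes as the last column) and after subtracting that median (right). Pair 3 lies below 0 on the left for all genes but Hhex, and at or above 0.27 on the right for all 6 members.

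Shares of hormone transcripts describe the mix without regard to total endocrine content. Within the summed TPM of 8 hormone genes (Ins1, Ins2, Iapp, Gcg, Sst, Ppy, Pyy, Ghrl), Pyy held 5.52%, 10.5% and 9.52% in high glucose and 7.46%, 10.6% and 4.09% in control pairs 1 to 3. Sst held 1.23%, 0.950% and 1.64% in high glucose and 1.69%, 1.85% and 0.841% in control. Pyy thus held more than Sst in every library. Ppy held 0.392% ± 0.122 in high glucose and 0.333% ± 0.073 in control, and Ghrl held 0.166% ± 0.075 in high glucose and 0.120% ± 0.037 in control (SD, n = 3 each). The mean differences were -0.190 percentage points for Sst, 0.0594 for Ppy, 1.14 for Pyy and 0.0454 for Ghrl. Each had an exact sign-flip p of 0.75 or 1 (two-sided, Benjamini-Hochberg adjusted p = 1 over the 8 genes), and none kept one sign in all 3 pairs.

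Without the 3 beta cell genes the mix turned on Gcg and Pyy. Gcg held 45.1% ± 7.51 of the 5 remaining hormones in high glucose and 44.6% ± 16.2 in control, and Pyy 44.9% ± 7.58 in high glucose and 44.0% ± 14.7 in control (SD, n = 3 each). Sst held 8.04%, 4.43% and 8.52% in high glucose and 8.68%, 10.6% and 6.75% in control. The high glucose library of pair 2 was the lowest and its control the highest. Pyy was 11.1 times as high as Sst per length in that high glucose library, and 4.42 to 5.82 times in the other 5 libraries. On the log2 scale the Pyy to Sst ratio differed by 0.03, 0.96 and 0.26 in pairs 1 to 3, high glucose minus control. The Pyy to Ppy ratio differed by -0.11, 0.05 and 0.18. It was 32.9 in high glucose and 31.8 in control in pair 2, and between 15.8 and 18.4 in pairs 1 and 3.

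**Figure D4:**
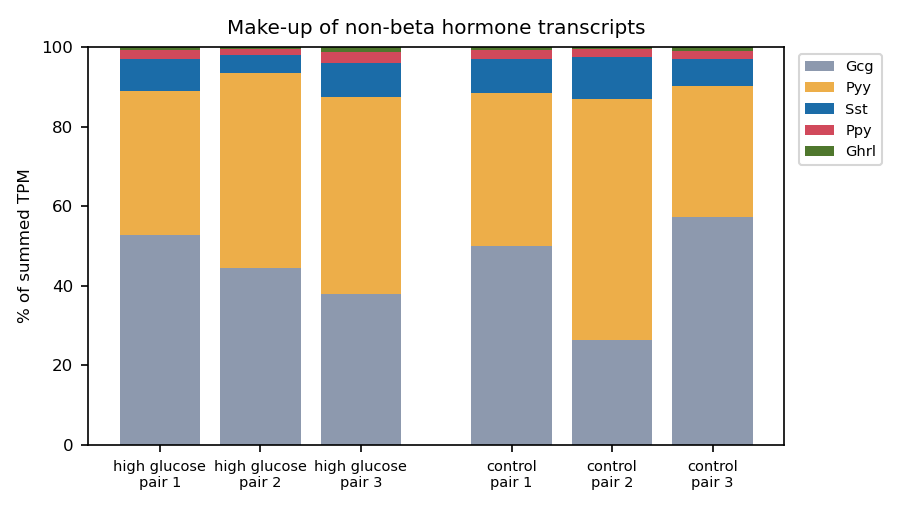
Percent of the summed TPM of Gcg, Pyy, Sst, Ppy and Ghrl held by each gene, 1 bar per library, with high glucose libraries left and controls right. Pyy holds between 32.9% and 60.7%, and Sst between 4.43% and 10.6%.

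Genes whose CPM followed the members most closely were named from 9868 tested genes with a mean of at least 5 CPM. The measure was Pearson's r of log2 CPM over 6 libraries. These libraries share 3 dams and are not independent, so r is a description. Sst lay nearest to MGC108823 (0.978), Gsta4 (0.961) and Agk (0.958), and Ppy to Tmem229b (0.989), Fto (0.982) and the islet autoantigen gene Ica1 (0.979). Pyy lay nearest to Degs1 (0.986), Tlcd1 (0.985) and the imprinted gene Dlk1 (0.984), and Ghrl to Maob (0.993), Ap3m1 (0.993) and Otub2 (0.989). Hhex lay nearest to Kif12 (0.989), Mlph (0.964) and Fgfr4 (0.961), and Rbp4 to Cbr4 (0.979), Rdh14 (0.977) and Ogdhl (0.965). Among the members themselves, r was 0.86 between Sst and Ppy and 0.77 between Ppy and Ghrl, but -0.05 between Pyy and Ghrl and -0.23 between Sst and Hhex. With so few libraries, many genes reach a high r.

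Receptors, ligands and partners of the members came from 6 lists of 63 genes, 62 of them counted and 52 tested. Of these 0 passed in edgeR in either direction and 2 had an unadjusted p below 0.05, near the 4.82% of all genes tested that did. DESeq2 called 1, and over all genes 106 of the 12832 it gave an adjusted p, or 0.826%. The 1 gene was Ptprz1, a receptor phosphatase gene expressed in mouse delta cells and in glia, singled out here after its value was seen. It measured 28.4, 12.4 and 58.9 CPM in high glucose and 15.0, 8.66 and 23.7 CPM in control. High glucose was thus higher in 3 of 3 pairs, where 23% of all genes tested kept one direction. The log2 fold change was 0.93 in edgeR (SE 0.23, adjusted p = 0.37) and 0.94 in DESeq2 (SE 0.27, adjusted p = 0.049). The 8 counted markers of nerve and Schwann cells, none at 0, summed to 203, 154 and 193 TPM in high glucose and 112, 197 and 181 TPM in control, and their part was not tested.

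Somatostatin acts through G protein-coupled receptors, of which Sstr2 and Sstr3 were the most abundant here. Sstr2 stood at 4.57 ± 2.60 TPM in high glucose and 3.67 ± 1.10 TPM in control, and Sstr3 at 4.12 ± 3.60 TPM in high glucose and 4.74 ± 1.86 TPM in control (SD, n = 3 each). Sstr5 was lower, at 0.625 ± 0.643 TPM in high glucose and 0.894 ± 0.638 TPM in control. The 4 tested genes of this list had a median log2 fold change of -0.22. Among the listed receptor genes of the peptide family that holds pancreatic polypeptide and peptide YY, Npy1r was the most abundant. It stood at 14.9 ± 7.97 TPM in high glucose and 13.7 ± 6.16 TPM in control. The pancreatic polypeptide receptor gene Npy4r had 0 to 23 counts in high glucose and 4 to 28 in control. Dpp4, the protease that trims peptide YY, stood at 6.35 ± 1.78 TPM in high glucose and 9.16 ± 9.72 TPM in control, and the 3 tested genes of the list had a median of -0.10.

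In the ghrelin list, Pcsk1, the convertase that cuts proghrelin, stood at 18.6 ± 22.9 TPM in high glucose and 16.7 ± 11.5 TPM in control. Gpr39, of the ghrelin receptor family, stood at 14.4 ± 5.07 TPM in high glucose and 9.87 ± 2.68 TPM in control. It was higher in 3 of 3 pairs, where 23% of all genes tested kept one direction. The log2 fold change of 0.44 did not pass (SE 0.24, edgeR adjusted p = 0.9996). Ache, for acetylcholinesterase, stood at 1.25 ± 0.488 TPM in high glucose and 4.94 ± 6.25 TPM in control, with 458 counts in the control library of pair 1 against 18 and 80 in those of pairs 2 and 3. The median over the 6 tested genes was -0.19.

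Retinoid genes that partner Rbp4 had a median log2 fold change of 0.22, with 10 of 13 above 0 and 0 called. Crabp2, which carries retinoic acid, stood at 61.2 ± 24.7 TPM in high glucose and 49.6 ± 30.5 TPM in control, and the receptor gene Rara at 90.2 ± 20.5 TPM in high glucose and 77.7 ± 11.1 TPM in control. Aldh1a2, which makes retinoic acid in mesenchyme, had the smallest p of this list. It was singled out after its values were seen, at 22.1, 48.8 and 23.4 CPM in high glucose and 12.8, 20.8 and 20.01 CPM in control. Its log2 fold change of 0.75 did not pass (SE 0.24, edgeR adjusted p = 0.705).

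Among inputs to delta cells, Ucn3, whose peptide from beta cells stimulates mouse delta cells, stood at 108 ± 106 TPM in high glucose and 77.8 ± 16.2 TPM in control. Its pair differences of 1.86, 0.08 and -2.45 on the log2 scale were far apart. The GLP-1 receptor gene Glp1r did likewise, at 14.6 ± 12.2 TPM in high glucose and 11.4 ± 6.34 TPM in control, while the Wnt antagonist gene Frzb varied less, at 11.2 ± 5.17 TPM in high glucose and 10.7 ± 1.41 TPM in control. The 10 tested genes of this list had a median of -0.04. The 16 transcription factors and related genes of the delta, PP and epsilon lineages had a median of -0.14. Pdx1 stood at 59.5 ± 43.5 TPM in high glucose and 57.6 ± 13.5 TPM in control, and Neurod1 at 37.6 ± 47.1 TPM in high glucose and 28.4 ± 14.4 TPM in control.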

How the data were processed

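The authors counted read pairs per gene with featureCounts 1.5.1 on the reverse strand (strand setting 2) at a mapping quality of at least 10, using rn6 refGene, per the file headers. The deposited values are raw counts. STAR 2.5 is named in the submitters' processing notes. Counting by strand keeps antisense genes apart. Groups came from the treatment labels, and dam pairs were read from the shared part of the sample titles, since the series design names the opposite horn as an internal control. The titles do not state the dam, and those of pair 2 match except for a digit in the control's. Deviations from group means correlated at 0.474, 0.621 and 0.413 for libraries taken as one dam. The other combinations of a high glucose and a control library gave -0.454 to -0.004. Deviations cancel within a group, so these values are not independent of one another. Whether a shared dam or shared handling gave them was not tested. No 2 libraries of a group agreed within counting noise. Whether replicates came from separate experiments is not stated. With dam as a block, the edgeR p-values set the group difference against the spread left within these pairs. The sign-flip p-values use the pair differences alone.

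From the counts, edgeR 4.0.16 in R 4.3.3 gave TMM-scaled CPM and the tests (filterByExpr, robust quasi-likelihood F-test, dam block, Benjamini-Hochberg over all genes, threshold 0.05). The SE is the fold change over the square root of F. Log2 CPM used a prior count of 2. TPM used the gene lengths deposited by the authors. The low-count filter left 6 of 7 members. Alternatives were DESeq2 1.42.0, RLE factors, other filters, no block and leaving out a pair. Members and lists were chosen with earlier results of these data known. Genes were named by a fixed rule: the members, the hormone and pan-endocrine genes, the 3 most abundant tested genes of each list with any that passed, and the 3 genes nearest each member. Some single-gene results that this rule names are left out and not reported here. The TPM ratios between genes were chosen after values were seen. Promoters are RefSeq's, in GRCr8.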

Additional observations from a re-analysis of the deposited data

How the results depend on the processing

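Each of the 8 alternatives called 0 members. The number of genes called over all genes, 2 in the main test, was 106 with DESeq2, 18 with no low-count filter, 5 where a mean of 50 counts was required, 0 with no replicate block and 18 to 55 without 1 pair. With no replicate block the Sst log2 fold change was -0.61, and dropping the block changed no member's call. DESeq2 called 1 gene of the receptor and partner lists. The sign of the fold change held for Sst, Hhex and Pyy under all 8 alternatives. Leaving out 1 pair gave -0.38 to 0.24 for Ghrl, -0.69 to 0.0013 for Ppy and -0.50 to 0.45 for Rbp4, each turning sign without pair 3. Relative to the endocrine median, leaving out 1 pair gave -0.15 to 0.29 for Ghrl, -0.42 to 0.087 for Pyy and -0.13 to 0.47 for Rbp4. Ghrl was at -0.047 beside Chga alone. The share differences ranged, in percentage points, from -0.68 to 0.17 for Sst, -0.048 to 0.13 for Ppy, -0.9999 to 2.68 for Pyy and -0.0014 to 0.086 for Ghrl without 1 pair. The causes were not tested. Depth limited Ghsr alone among the members, whose other 6 genes had at least 257 counts in every library.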

Other observations

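Gast, the gastrin gene, which is known to be expressed in fetal islets, was examined after its counts were seen in the gut list. It measured 48.6, 37.6 and 32.2 CPM in high glucose and 44.4, 31.2 and 30.2 CPM in control pairs 1 to 3. It was higher in high glucose in 3 of 3 pairs, by 0.13, 0.27 and 0.09 on the log2 scale. Of all genes tested, 23% kept one direction in all 3 pairs. Its log2 fold change was 0.16 (SE 0.19, edgeR adjusted p = 0.9996), and it did not pass.

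Hhex and Sst, both genes of delta cells, differed in their ratio in one direction in 3 of 3 dams. The log2 ratio of Hhex to Sst CPM was -2.57, -1.97 and -1.05 in high glucose and -3.63, -2.93 and -2.53 in control pairs 1 to 3, a difference of 1.06, 0.97 and 1.48. This ratio was picked from those possible among the members after the values were seen, and was given no test. Of all single genes tested, 23% kept one direction in all 3 pairs, and the share among ratios was not worked out. Neither gene passed on its own. The summed duct markers, given with Hhex in the results, were also higher in high glucose in 3 of 3 pairs. The summed endothelial markers, given there too, were lower in 3 of 3 pairs, at -0.07, -1.42 and -0.01 on the log2 scale. The part of either cell type in the ratio was not tested.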
